A study of Mus musculus and Sus scrofa with 18 samples.

Results

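Glutathione peroxidases are the enzymes that spend glutathione to reduce hydrogen peroxide and lipid hydroperoxides to water and alcohols. Transcripts of 6 of them, Gpx1, Gpx3, Gpx4, Gpx6, Gpx7 and Gpx8, were followed in the striatum of Huntington's disease (HD) model mice. They are 6 of the 55357 genes in the mouse count table. All 6 passed the filter on low counts, as did 19463 genes in all. The family was listed by name, but Gpx6 was picked for its low level in both HD groups, so its difference from WT is given below as values with no test. The listed genes were chosen by gene symbol, with earlier results of these data known.

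The mice fell into 3 groups of 3, each library coming from 1 animal. WT mice had received AAV9-Ctrl gRNA alone. Untreated HD mice were heterozygous HD 140Q-KI animals, in which human HTT exon 1 with 140 CAG repeats replaces the mouse exon 1, and had received AAV9-CasRx with AAV9-Ctrl gRNA. Treated HD mice were the same knock-in, and had received AAV9-CasRx with 2 viruses carrying the HTT gRNA pairs 1+2 and 3+4. CasRx is an RNA-cutting CRISPR enzyme, here driven by the ubiquitous CAG promoter, with the gRNAs under U6 and GFP on the gRNA vectors. All animals were injected into both striata at 6 months of age and killed 1.5 months later. WT mice carried no CasRx, so the knock-in and the enzyme cannot be told apart in either comparison with WT, and both comparisons share the WT libraries.

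In glutathione peroxidases a selenocysteine or a cysteine sits at the active site and is oxidised by the peroxide, and glutathione then reduces it back. Gpx1 is the abundant cytosolic enzyme, Gpx3 the secreted plasma form, and Gpx4 the one known for reducing phospholipid hydroperoxides in membranes and so for holding back ferroptosis. Gpx7 and Gpx8 reside in the endoplasmic reticulum and pass peroxide oxidation on to protein disulfide isomerases. Gpx6 is related to Gpx3 and is best known from olfactory epithelium.

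The coding sequence around the active-site codon is printed for the 6 members because it divides the family. Each stretch holds 12 bases before the codon and 15 after it, 5′ to 3′ on the coding strand, from GENCODE M21 transcripts (GRCm38). Capitals mark the active-site codon, and TGA, normally a stop codon, is read as selenocysteine in Gpx1, Gpx3 and Gpx4 by the annotation.
Gpx1: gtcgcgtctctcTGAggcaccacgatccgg
Gpx3: gtagccagctacTGAggtctgacagaccaa
Gpx4: gtggcctcgcaaTGAggcaaaactgacgta
Gpx6: gtggcatccttcTGTggcctgacagctacg
Gpx7: gtagctagcgaaTGTggcttcacagaccag
Gpx8: gtggctagtgacTGCcgcttcacagacaag

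Gpx6, Gpx7 and Gpx8 hold a cysteine codon at the position that aligned with the selenocysteine of Gpx1. The translated coding sequence of Gpx6, 221 codons long, was most like Gpx3, with 66.5% of 221 aligned residues identical, followed by Gpx5 with 63.8%. Against Gpx1, Gpx7, Gpx4 and Gpx8 it shared 49.7%, 40.6%, 38.5% and 33.7%. Gpx7 and Gpx8 shared 48.4% of residues with each other. The members lie on chromosome 9 (Gpx1), 11 (Gpx3), 10 (Gpx4), 4 (Gpx7) and 13 (Gpx6 and Gpx8). The build behind the counts is not given in the sources used here, so no positions are printed.

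Reads came from the 3′ ends of polyadenylated RNA, with between 27184356 and 32102121 counts per library. Values are TMM-scaled CPM (counts scaled to equal library totals), with no correction per gene, so levels are compared between groups and not between genes. A call is an edgeR quasi-likelihood adjusted p under 0.05 over all tested genes. In counts of listed genes, rose and fell mean called higher and called lower. Counts of Uty, Kdm5d, Ddx3y and Eif2s3y, 4 genes of the Y chromosome, summed to between 3435 and 5005 in the 3 WT libraries, 4683 in untreated replicate 1 and 0 in the other 5. Htt, counted at the 3′ end that both alleles share, was 187 ± 4.81 CPM in WT mice, 145 ± 4.62 without and 135 ± 4.65 with the HTT gRNAs (SD, n = 3). Htt was called lower than WT in untreated mice (log2 difference -0.37, adjusted p = 0.00656) and in treated mice (-0.46, adjusted p = 0.00425). Treated against untreated it differed by -0.10 on the log2 scale (SE 0.06, adjusted p = 0.942). Treated libraries held 130.5 to 139.7 CPM and untreated ones 140.4 to 149.6. The paper reports less mutant HTT mRNA by RT-qPCR in mice treated at this age, an allele that these counts do not separate. For cortical neuron markers WT replicate 1 stood apart from the other WT libraries, with a sum of 996 CPM against 433 and 277.

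Gpx6 was nearly absent from both HD groups. The WT libraries held 111, 163 and 210 counts of Gpx6, which is 4.19, 5.98 and 6.98 CPM. The untreated libraries held 2, 16 and 7 counts, or 0.0702, 0.537 and 0.238 CPM. The treated libraries held 15, 11 and 15 counts, or 0.460, 0.362 and 0.485 CPM. Every HD library lay below every WT library, and the HD groups overlapped each other.

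The group means of Gpx6 were 5.72 ± 1.41 CPM for WT, 0.282 ± 0.237 for untreated and 0.436 ± 0.0645 for treated mice (SD, n = 3). Untreated mice thus had 4.93% of the WT level and treated mice 7.62%. The fitted log2 fold change was -4.31 (SE 0.50) for untreated and -3.70 (SE 0.48) for treated mice against WT. These were the 7th and the 8th largest falls among the 19463 tested genes, values that the choice of the gene rested on. The exact Poisson 95% interval of the highest HD library ran from 0.307 to 0.873 CPM and that of the lowest WT library from 3.45 to 5.05. These intervals cover counting error within a library only, not the spread between animals.

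Treated and untreated mice were compared for Gpx6 with a test, since the gene was not picked on that contrast itself. It was picked for a low level in both of these groups, however. A gene brought back to the WT level by treatment would not have been picked, so the test is not free of that choice. The difference was 0.61 on the log2 scale (SE 0.53, 95% interval -0.58 to 1.81), with treated mice the higher, and did not pass (edgeR adjusted p = 0.995). On log2 CPM a two-sided exact permutation test gave p = 0.4, where 3 animals against 3 cannot go below 0.1. The interval allows a treated level between 67.0% and 349% of the untreated one. At 2 to 16 counts per HD library a smaller difference was not detectable. The estimate depended on single untreated mice, being 0.17 without untreated replicate 1 and 1.48 without untreated replicate 2 (adjusted p = 1.00 and 0.837).

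**Figure D1:**
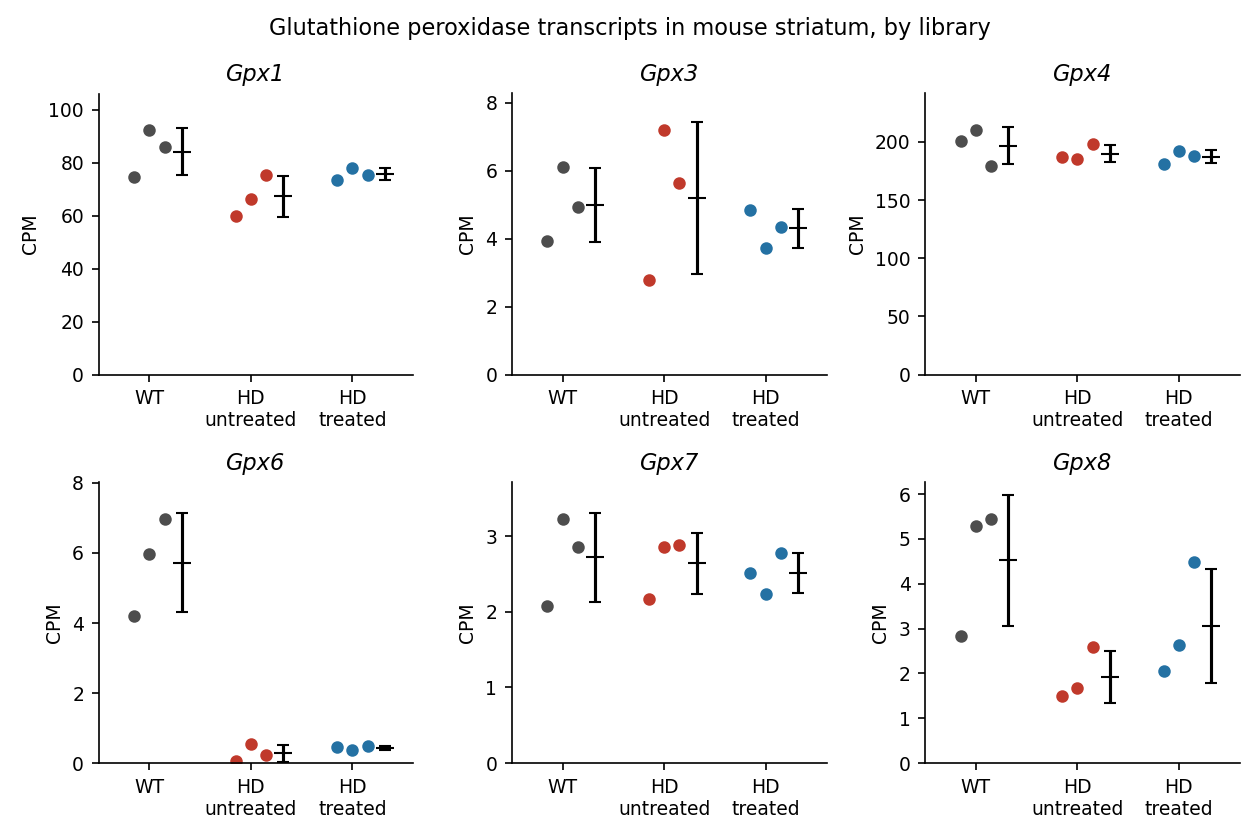
CPM (y axis, linear from 0) of 6 glutathione peroxidases in each mouse striatum library, with 3 points per group and the group mean ± SD in black beside them. Gpx6 sits between 4.19 and 6.98 in WT and at 0.537 or below in all 6 HD libraries, and the groups of Gpx3, Gpx4 and Gpx7 overlap throughout.

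Of the 5 other members, 0 were called in untreated against WT mice, where 10.7% of all tested genes were. At an unadjusted P under 0.05, 2 of the 5 passed, Gpx1 and Gpx8, both lower, against 28.6% of all tested genes. In treated against WT mice 0 of the 5 were called and 0 had an unadjusted P under 0.05, beside 3.69% and 21.4% of all tested genes. With 5 genes these shares are too coarse to set the family apart from the rest of the table. The median log2 difference over the 5 was -0.05 in untreated and -0.15 in treated mice, with 0.02 and 0.00 over all tested genes.

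Gpx1 was lowest in untreated mice. Its CPM was 74.5, 92.3 and 85.9 in WT, 60.0, 66.4 and 75.6 in untreated and 73.6, 78.2 and 75.5 in treated libraries. Only untreated replicate 3 reached into the WT range, and the treated libraries lay close together around its lower end. Untreated against WT, the log2 fold change was -0.32 (SE 0.10, 95% interval -0.55 to -0.10, adjusted p = 0.0709). Treated against WT it was -0.15 (SE 0.10, adjusted p = 0.419).

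Gpx4, the membrane lipid peroxidase, was the steadiest member. Its counts ran from 5316 to 5912 over the 9 libraries. The means were 197 ± 15.7 CPM in WT mice, 190 ± 7.22 in untreated HD mice and 187 ± 5.52 in treated HD mice, and the groups overlapped. The log2 difference from WT was -0.05 (SE 0.07, 95% interval -0.22 to 0.11, adjusted p = 0.690) in untreated mice and -0.07 (SE 0.07, 95% interval -0.24 to 0.09, adjusted p = 0.610) in treated mice. The pseudogene Gpx4-ps2, whose transcript matches that of Gpx4 at 99.7% of 762 aligned bases, was counted at 9.54 to 12.3 CPM, and reads of the copies may have been split between them.

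Gpx3, the secreted enzyme, varied more between untreated animals than between groups. The untreated libraries gave 2.77, 7.19 and 5.64 CPM, which spanned the WT values of 3.93, 6.09 and 4.92. The treated libraries gave 4.84, 3.72 and 4.33 CPM. Against WT the log2 difference was 0.06 (SE 0.32, adjusted p = 0.921) in untreated and -0.21 (SE 0.32, adjusted p = 0.747) in treated mice. With the share of Y-linked counts as a covariate, an adjustment that rests largely on untreated replicate 1, the treated value was -1.29 (adjusted p = 0.257). The 95% intervals ran from -0.65 to 0.77 and from -0.92 to 0.50, so smaller changes of Gpx3 were not detectable.

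The endoplasmic reticulum members Gpx7 and Gpx8 did not share a pattern. Gpx7 was 2.72 ± 0.588 CPM in WT mice, 2.64 ± 0.402 in untreated HD mice and 2.51 ± 0.269 in treated HD mice, with all groups overlapping. Its log2 difference from WT was -0.04 (SE 0.22, adjusted p = 0.921) in untreated and -0.12 (SE 0.22, adjusted p = 0.806) in treated mice.

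Gpx8 was lower in untreated mice, short of the threshold. Its CPM was 2.83, 5.29 and 5.45 in WT, 1.51, 1.68 and 2.58 in untreated and 2.05, 2.64 and 4.49 in treated libraries. The untreated libraries all lay below the WT libraries, though replicate 3 came close to WT replicate 1, and the treated libraries overlapped both groups. Untreated against WT, the log2 fold change was -1.23 (SE 0.37, 95% interval -2.06 to -0.41, adjusted p = 0.0618). Treated against WT it was -0.57 (SE 0.36, 95% interval -1.37 to 0.24, adjusted p = 0.401), and -0.95 without treated replicate 3 (adjusted p = 0.250). Gpx8 overlaps Cdc20b on the opposite strand, and Cdc20b held 0 to 12 counts per library.

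The libraries in which Gpx8 was highest also held the most fibroblast, meningeal and choroid plexus markers. The 8 fibroblast and meningeal markers summed to 36.3, 172 and 111 CPM in WT, 33.1, 45.5 and 52.6 in untreated and 51.2, 44.5 and 109 in treated libraries. The 12 choroid plexus markers summed to 307, 5509 and 2072 CPM in WT, 488, 280 and 270 in untreated and 598, 312 and 2133 in treated libraries. WT replicates 2 and 3 and treated replicate 3 were the highest for Gpx8 and for both lists. WT replicate 1 had more Gpx8 than treated replicate 1 but lower sums for both lists. Other lists had another order. Microglial and macrophage markers summed to 507 and 461 CPM in WT replicates 2 and 3 and to 622 or more in every HD library. None of the fibroblast, meningeal and choroid plexus markers was at 0 in any library, and their part in the Gpx8 values was not tested.

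The calls of Gpx1 and Gpx8 in untreated mice turned on the method and on 1 WT library. Both passed with DESeq2 (adjusted p = 0.0332 and 0.0132, with 17.8% of all genes called). Both also passed without WT replicate 1 (adjusted p = 0.0257 and 0.0270, with 12.9% called). By an unadjusted P under 0.05 with at least a 2-fold change, 1 of the 5, Gpx8, counted as changed, against 8.16% of all genes.

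In treated against untreated mice, 0 of the 6 members were called, as was 0% of all tested genes, and 0 had an unadjusted P under 0.05, against 5.5%. Gpx1 was 0.17 higher on the log2 scale (SE 0.10, 95% interval -0.06 to 0.40, adjusted p = 0.931). Gpx8 was 0.67 higher (SE 0.37, 95% interval -0.16 to 1.49, adjusted p = 0.922), and 0.29 higher without treated replicate 3, the treated library with the most choroid plexus and meningeal markers. Both point estimates leave the treated mean between those of untreated and WT mice. Gpx3 differed by -0.27 (95% interval -0.99 to 0.44) and Gpx7 by -0.07 (95% interval -0.57 to 0.43). For Gpx4 the interval of -0.19 to 0.14 bounds any difference to between 88.0% and 110% of the untreated level.

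**Figure D2:**
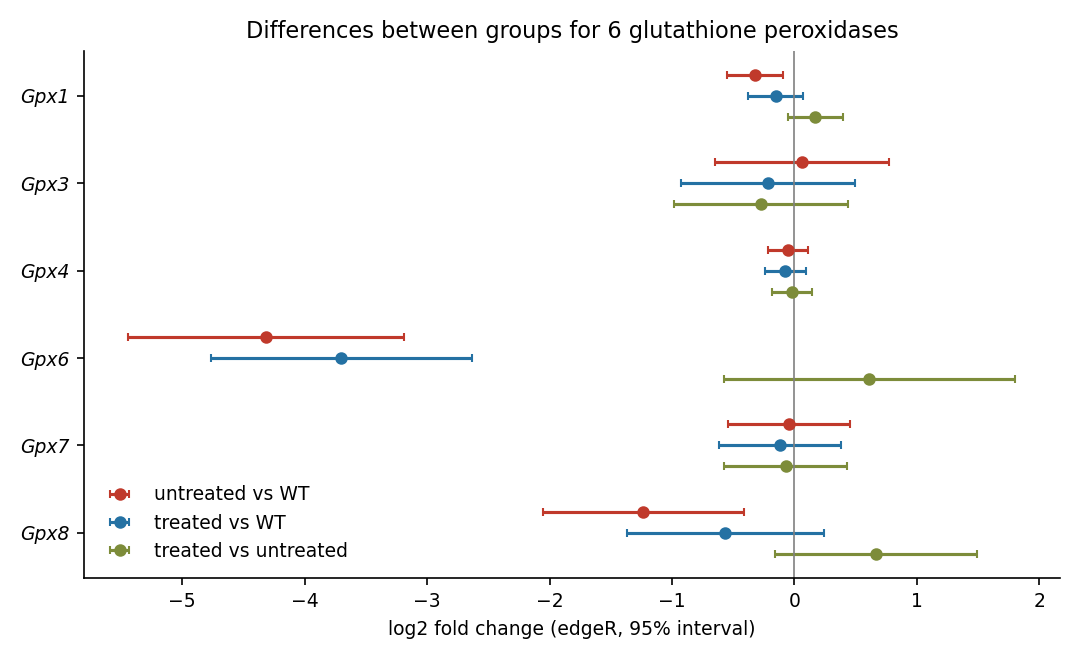
Log2 fold change (x axis) of each of the 6 members in the 3 comparisons, as points with 95% intervals from the edgeR fit. The intervals of Gpx6 against WT lie near -4.31 and -3.70 and are a description, since the gene was picked on them, while its interval for treated against untreated mice runs from -0.58 to 1.81.

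The remaining annotated family members were barely counted in striatum. Gpx5, a cysteine enzyme of the epididymis next to Gpx6 on chromosome 13, had 0 counts in all 9 libraries, which allows up to 0.139 CPM in the shallowest by the exact Poisson limit. Gpx2, the gastrointestinal form, had 0, 11 and 0 counts in WT, 4, 4 and 2 in untreated and 3, 4 and 7 in treated libraries. Neither passed the filter, so neither was tested.

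Glutathione itself is built from cysteine, glutamate and glycine, recycled by glutathione reductase with NADPH, and used by transferases as well as peroxidases. In 6 lists of such partner genes, 122 of 128 genes passed the filter. Against WT, 9 of the 122 (7.38%) were called in untreated mice, 4 higher and 5 lower, and 1 (0.820%) in treated mice, both under the shares over all tested genes. In treated against untreated mice 0 were called. Only 1 of the 122 was lower by 2-fold or more in each comparison with WT and 0 by 4-fold. The fitted value of Gpx6 lay beyond these, but Gpx6 was picked for its fall, so this is a description.

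Among the 18 genes of glutathione synthesis and recycling 0 were called in each comparison. The neuronal cysteine and glutamate transporter Slc1a1 was 126 ± 13.5 CPM in WT and 104 ± 11.6 in untreated mice (log2 difference -0.28, adjusted p = 0.107). G6pdx, which supplies NADPH, differed by -0.21 (adjusted p = 0.179) and the 5-oxoprolinase Oplah by -0.29 (adjusted p = 0.192). The cystine importer Slc7a11 was 20.1 ± 4.48 CPM in WT and 30.7 ± 4.52 in treated mice (log2 difference 0.61, adjusted p = 0.0931). Gclm, the regulatory subunit of glutamate-cysteine ligase, differed by 0.29 in the same comparison (adjusted p = 0.297). Treated against untreated, Slc7a11, Gsr and Chac2 had the smallest P of the list, with adjusted p between 0.909 and 0.995. The median log2 difference of the list from WT was 0.02 in untreated and 0.01 in treated mice.

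Of 27 glutathione S-transferase genes 23 were tested and 0 were called in each comparison. The mu-class enzymes Gstm6 and Gstm1 were lower in untreated mice by log2 values of -0.69 and -0.33, with adjusted p of 0.0520 and 0.0528. The omega-class Gsto1 was higher by 0.30 in untreated mice (adjusted p = 0.0598) and by 0.32 in treated mice (adjusted p = 0.0749). Hpgds, the transferase that makes prostaglandin D2, was higher by 0.86 in untreated mice (adjusted p = 0.0607) and by 0.73 in treated mice (adjusted p = 0.138). The theta-class Gstt3 and Gstt1 differed by 0.67 and 0.39 between treated and untreated mice (adjusted p = 0.886 and 0.911). Members of these gene classes resemble each other closely, and shared reads may have been divided among them.

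Of 25 tested enzymes that remove peroxide by other routes, 2 rose and 2 fell in untreated against WT mice, where 10.7% of all tested genes were called. That share is the background for the counts of the following lists in untreated mice too. The glutaredoxin Glrx rose from 15.2 ± 2.83 to 24.9 ± 2.04 CPM (log2 fold change 0.72, SE 0.14, adjusted p = 0.0167). Msrb3, which repairs oxidised methionine, rose from 7.53 ± 0.184 to 11.5 ± 0.988 CPM (log2 fold change 0.61, SE 0.11, adjusted p = 0.0127). The cytosolic thioredoxin reductase Txnrd1 fell from 88.6 ± 2.88 to 67.9 ± 3.56 CPM (log2 fold change -0.38, SE 0.07, adjusted p = 0.00931). The cytosolic superoxide dismutase Sod1 fell from 147 ± 16.9 to 115 ± 3.61 CPM (log2 fold change -0.35, SE 0.08, adjusted p = 0.0294). In treated mice 0 of the 25 were called, and these 4 genes differed from WT in the same directions with adjusted p between 0.103 and 0.166.

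Among 24 tested selenoprotein genes and factors of selenocysteine synthesis, 1 rose and 1 fell in untreated mice. Secisbp2, which recruits the selenocysteine machinery to selenoprotein mRNAs, fell by 0.34 on the log2 scale, from 28.3 ± 1.03 to 22.3 ± 1.29 CPM (adjusted p = 0.0332). Lrp8, a neuronal receptor that takes up selenoprotein P, rose by 0.57, from 59.2 ± 10.1 to 87.8 ± 15.8 CPM (adjusted p = 0.0353). Selenom of the endoplasmic reticulum was lower by values of -0.33 in untreated and -0.36 in treated mice, with adjusted p of 0.0619 and 0.0749. In treated mice 0 of 24 were called, Secisbp2 differing from WT by -0.27 (adjusted p = 0.102) and Selenon by 0.28 (adjusted p = 0.134). Between treated and untreated mice the smallest P were those of Lrp8, Selenoh and the deiodinase Dio3, at adjusted p of 0.912 or above.

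Targets of the antioxidant factor Nrf2 included the partner gene with the largest fall. Of 24 tested, 0 rose and 3 fell in untreated mice, Txnrd1 among them. The carbonyl reductase Cbr3 fell from 28.5 ± 7.89 CPM in WT to 10.3 ± 0.690 in untreated (log2 fold change -1.47, SE 0.18, adjusted p = 0.00176) and 14.1 ± 1.17 in treated mice (log2 fold change -1.01, SE 0.18, adjusted p = 0.0164). The epoxide hydrolase Ephx1 fell from 36.7 ± 10.9 to 20.4 ± 2.85 CPM in untreated mice (log2 fold change -0.85, SE 0.20, adjusted p = 0.0284), and in treated mice differed by -0.59 (adjusted p = 0.125). Between treated and untreated mice the quinone reductase Nqo1 differed by 0.51 (adjusted p = 0.886), Txnrd1 by 0.19 and Cbr3 by 0.46 at the same adjusted p.

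Of 20 tested genes of lipid peroxidation and ferroptosis, the process that Gpx4 opposes, 1 rose and 0 fell in untreated mice. Acsl4, which loads membranes with polyunsaturated fatty acids, rose from 45.8 ± 11.6 to 71.2 ± 4.03 CPM (log2 fold change 0.64, SE 0.16, adjusted p = 0.0376). The cysteine desulfurase Nfs1 and the ferritin receptor Ncoa4 differed by -0.35 and -0.14 (adjusted p = 0.0894 and 0.156). In treated mice 0 of 20 were called. The lipoxygenase Alox5 was 0.462 ± 0.147 CPM in WT and 1.20 ± 0.218 in treated mice (log2 difference 1.36, adjusted p = 0.0590), and Mboat1 differed by 0.71 (adjusted p = 0.107). Alox5, Mboat1 and Alox12b had the smallest P between treated and untreated mice, with adjusted p between 0.886 and 0.901.

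**Figure D3:**
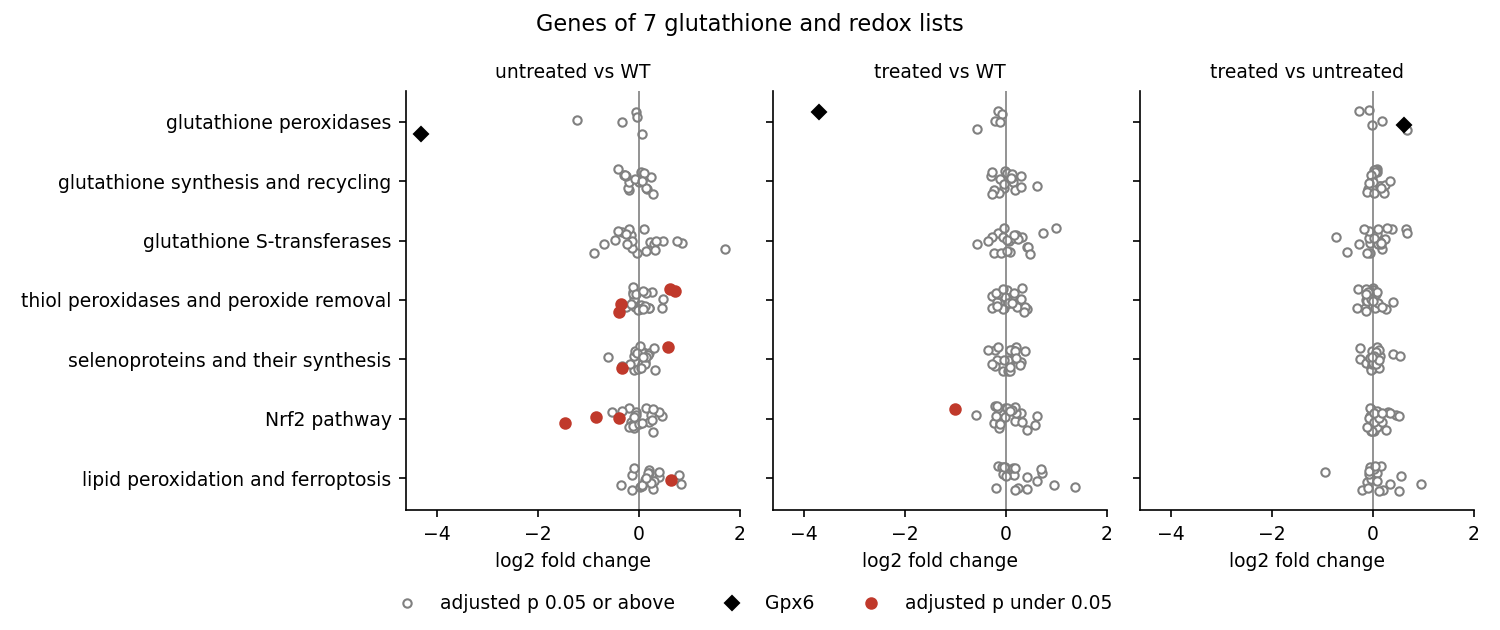
Log2 fold change (x axis) of every tested gene in 7 glutathione and redox lists (rows) for the 3 comparisons (panels), with red points for an adjusted p under 0.05, open points for the rest and a black diamond for Gpx6. Gpx6, picked for its fall, lies at -4.31 and -3.70, left of all partner genes in both comparisons with WT. No list holds a red point in treated against untreated mice.

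The genes whose level over the 9 libraries was most like that of Gpx6, by Pearson r of log2 CPM, were Krt9 (r = 0.992), Lrba (0.991), Dhx32 (0.987), Cacna1c (0.985) and Caln1 (0.985), out of 19462 genes. The 9 points share the 3 groups, and the difference between WT and HD mice enters each r. Over deviations from the group means, r with Gpx6 ran from 0.788 (Cacna1c) to 0.936 (Lrba), in genes picked on these same libraries. All 5 were lower in HD mice by less than Gpx6. Krt9, a keratin gene, was the closest in size as well, with 39.9 ± 7.35 CPM in WT mice, 11.7 ± 2.53 in untreated HD mice and 15.7 ± 0.530 in treated HD mice. Caln1, a neuronal calcium-binding protein, was 481 ± 46.7, 244 ± 26.2 and 295 ± 18.6 CPM. Cacna1c, the pore of an L-type calcium channel, was 159 ± 5.44, 103 ± 6.07 and 112 ± 6.09 CPM.

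Markers of striatal projection neurons, the cells most affected in HD, were lower in the same libraries as Gpx6. The 16 markers summed to between 7696 and 10159 CPM in WT, 2589 and 3049 in untreated and 3934 and 4017 in treated libraries, and none was at 0. Against WT, 16 of 16 were called lower in untreated mice, beside 10.7% of all tested genes called, with a median log2 difference of -1.84. In treated mice 12 of 16 were called lower, beside 3.69% of all tested genes called, with a median of -1.09. All 16 lay below WT there too, the smallest difference being -0.15. The fitted values in untreated mice ran from -2.22 for Penk to -0.69 for Foxp1, the ends of the list, named after their values were seen. The value of -4.31 for Gpx6 lay beyond all of them, and so did each of its 6 HD libraries, but Gpx6 was picked on these values. Over the 9 libraries, r with Gpx6 ran from 0.724 for Tac1 to 0.977 for Penk, the enkephalin precursor, the ends of the 16 markers. In bulk tissue fewer cells of a type and less RNA per cell cannot be told apart, and the part of these neurons in the Gpx6 values was not tested.

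**Figure D4:**
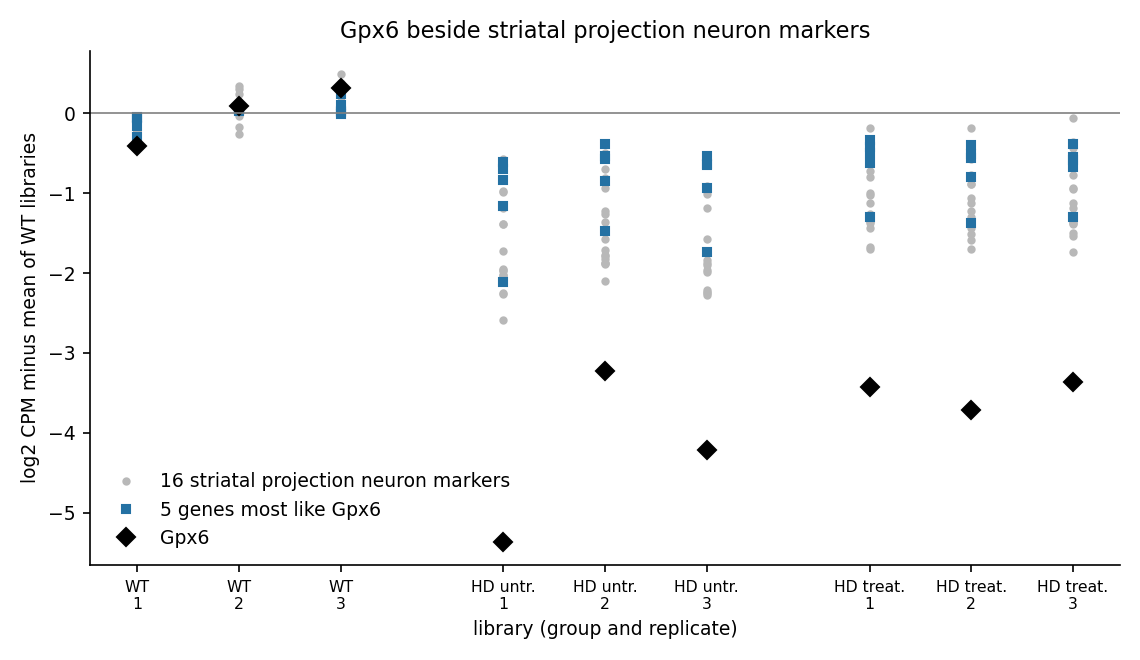
Log2 CPM minus the mean of the WT libraries (y axis) in each of the 9 libraries (x axis) for Gpx6 (black diamonds), 16 striatal projection neuron markers (grey) and the 5 genes most like Gpx6 (blue). Gpx6, picked for its low level in HD mice, lies between -3.23 and -5.36 in untreated and between -3.36 and -3.72 in treated libraries, below every grey and blue point there.

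Markers of other cell types were counted by list. Against WT in untreated mice, beside 10.7% over all tested genes, 4 of 8 tested T cell and cytotoxic lymphocyte markers rose and 1 fell, 3 of 10 endothelial and mural, 2 of 14 microglial and macrophage and 2 of 9 cortical neuron markers rose, 1 of 12 choroid plexus and 1 of 10 astrocyte markers fell, and of 8 oligodendrocyte markers 1 rose and 1 fell. Of the 8 T cell and cytotoxic lymphocyte markers, 7, 4 and 4 had 0 counts in the WT libraries. Such markers passed the filter on low counts only with the help of HD libraries, so the filter itself favoured a rise. Of the 8 fibroblast and meningeal, 5 ependymal and 5 red blood cell markers 0 were called. All 12 choroid plexus markers were lower in untreated mice by 2-fold or more at an unadjusted P under 0.05. Over all tested genes 8.16% changed by that rule. The median log2 difference of the choroid plexus markers was -3.46, and their part in the values of Gpx6 was not tested. In treated mice, beside 3.69% over all tested genes, 2 endothelial and mural, 1 astrocyte and 1 oligodendrocyte marker rose, 1 T cell and cytotoxic lymphocyte marker fell, and 0 were called in the other 6 lists. The red blood cell markers summed to 190, 107 and 188 CPM in WT, 3.09, 67.3 and 43.6 in untreated and 51.5, 2.77 and 3.91 in treated libraries, so that, as for Gpx6, every HD library lay below every WT library. Their part in the values of Gpx6 was not tested. The cortical neuron markers summed to between 1149 and 1375 CPM in untreated and 796 and 858 in treated libraries, against 277 to 996 in WT, and their part in the values of Gpx6 was not tested either. WT replicate 1 was the highest of the WT libraries for these markers and the lowest of them for Gpx6, at 4.19 CPM.

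The Y-linked counts split the animals largely along the groups. Untreated replicate 1, the HD library with Y-linked counts, had the fewest Gpx6 counts of all 9, with 2. With that library and the 3 WT libraries alone, a comparison added after the data had been seen, the log2 difference was -6.25. No treated library held Y-linked counts, and no WT library lacked them, so in treated against WT mice sex and group cannot be told apart, and no comparison was possible among libraries without Y-linked counts.

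The tested genes on either side of Gpx6 on chromosome 13, by their order in the RefSeq annotation of GRCm38, were not called. Trim27 was 17.6 ± 2.51 CPM in WT mice, 18.8 ± 1.07 in untreated HD mice and 17.6 ± 2.66 in treated HD mice. Zscan12 was 6.95 ± 0.569, 6.60 ± 0.777 and 7.03 ± 0.197 CPM. The adjusted p of both against WT was 0.695 or above. Further out, Elmo1 fell in untreated mice by 0.65 on the log2 scale (adjusted p = 0.00547) and in treated mice by 0.48 (adjusted p = 0.0328). Aoah, Zkscan3 and Pgbd1, also further out, were not called against WT, with adjusted p of 0.211 or above.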

How the data were processed

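Per the labels, striatal total RNA of each mouse was primed with oligo-dT for 3′ mRNA sequencing, 1 library per animal. The authors deposited raw counts per Ensembl gene, whole numbers without normalization. The methods name STAR, while the submitters' processing notes list Trimmomatic 0.39, FastQC 0.11.9, HISAT2 2.2.1 and featureCounts 2.0.1. The mouse build and strand setting are not given in the sources used here. Of the gene IDs, 94.1% matched GENCODE M21 names. Pig libraries were not used here.

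The fit used edgeR 4.0.16 under R 4.3.3 (filterByExpr by group, TMM, glmQLFit on all 9 mouse libraries, 6 residual degrees of freedom, glmQLFTest, Benjamini-Hochberg over all tested genes). Log2 CPM used a prior count of 2. DESeq2 1.42.0 was an alternative. The fit was tested on simulated data. Sequences were aligned with Biopython 1.88. No 2 libraries of a group agreed within sampling noise.

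The members, the pathway and cell type lists and the tests were chosen with earlier results of these data known. Named are all 8 Gpx genes, in each pathway list and comparison the 3 genes with the smallest unadjusted P, the 5 genes most like Gpx6, Htt and 4 Y-linked genes. Markers and neighbours named besides are outside that rule. Alternatives were other scaling, filters, tests, groups in the fit, a replicate block, a Y-linked covariate and leaving out each mouse.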

Additional observations from a re-analysis of the deposited data

How the results depend on the processing

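Log2 fold changes are given throughout. The count of members other than Gpx6 called in untreated against WT mice, 0 in the main test, became 2 (Gpx1 and Gpx8) with DESeq2 and with a replicate block, and 1 (Gpx8) with an unadjusted P under 0.05 or 0.01 and a 2-fold change. Leaving out 1 mouse gave 0 to 2, the 2 coming without WT replicate 1. In the other comparisons the count was 0 under every alternative. Replicate numbers mark different animals. Same-numbered mice had deviations correlated between -0.08 and 0.24, and a library correlated best with its own number in 8 of 18 cases. The block moved the calls over all genes from 2080 to 2018 and from 718 to 778 against WT, and treated against untreated it gave 0 calls. The share of Y-linked counts as a covariate cut them to 457 and 5, and with Y-positive libraries alone, 1 of them from an untreated mouse, 0 genes were called against WT.

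Gpx6 against WT moved to -5.68 in untreated and -5.45 in treated mice with the share of Y-linked counts as a covariate, and to -6.25 with Y-positive libraries alone. Only the untreated group held libraries both with and without Y-linked counts. Values of any gene with this covariate therefore rest largely on untreated replicate 1, which held 2 counts of Gpx6. Leaving out 1 mouse gave -5.18 (without untreated replicate 2) to -3.87 (without untreated replicate 1) for untreated and -3.89 to -3.53 for treated mice, and 0.17 to 1.48 for treated against untreated mice. A minimum of 10 counts in every library removed Gpx6. Of the 5 genes most like it, 3 remained with a prior count of 0.5, 0 by Spearman correlation and 0 over deviations from group means.

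Direction changed for Gpx3, Gpx4 and Gpx7, whose differences were called under no alternative. Untreated against WT, Gpx3 turned to -0.70 with the Y-linked covariate and -0.83 with Y-positive libraries, and Gpx7 to 0.0035 without TMM. Leaving out 1 mouse gave ranges of -0.26 to 0.36 (Gpx3), -0.11 to 0.0010 (Gpx4) and -0.22 to 0.10 (Gpx7). Gpx7 treated against WT ran from -0.29 to 0.031 on leaving out 1 mouse. With the Y-linked covariate Gpx3, Gpx7 and Gpx8 there were -1.29, -0.49 and -0.99. On leaving out 1 mouse, Gpx8 ran from -0.95 (without treated replicate 3) to -0.35 (without treated replicate 1) treated against WT. Treated against untreated it ran from 0.29 (without treated replicate 3) to 0.94 (without untreated replicate 3). In that comparison, leaving out 1 mouse gave -0.57 to 0.041 for Gpx3, -0.036 to 0.011 for Gpx4 and -0.19 to 0.0083 for Gpx7. The Y-linked covariate gave -0.58, -0.045 and -0.20 for these 3 genes. The cause of these changes was not tested.

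With a P under 0.05 and a 2-fold change, the thiol peroxidase list went from 4 calls to 0 in untreated mice, the selenoprotein list from 2 to 0, the Nrf2 list from 3 to 1 and the ferroptosis list from 1 to 0, and in treated mice the last went from 0 to 1. With the block, the transferase list went from 0 to 1 and the selenoprotein list from 2 to 1.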
